A study of Mus musculus with 3 samples.

Results

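Meiotic break sites that the humanized PRDM9 allele uses on top of H3K4me3 of another origin were described in F1 males of a C57BL/6J (B6) by CAST/EiJ (CAST) cross. The Prdm9 genotype of every library was HUM/CAST, a humanized allele beside the CAST allele, and animals of another genotype are not analysed here. DMC1 ChIP-seq was made from whole testis of a male aged 10 weeks, and H3K4me3 ChIP-seq from nuclease-digested chromatin of whole testis of an adult male, age not given. Each assay had 1 library. The sites were chosen as the autosomal lines of the deposited table that the authors assigned to HUM and marked as overlapping a PRDM9-independent H3K4me3 peak. This gave 676 sites of the 24586 in the table, or 7.28% of the 9281 autosomal HUM sites (exact Clopper-Pearson 95% interval 6.76% to 7.83%). The corresponding share was 7.79% of 12372 CAST sites and 18.9% of 1916 sites of the class UNK, which the file headers do not define. The sites on PRDM9-independent peaks are called on-peak sites below, and the 8605 autosomal HUM sites without the overlap are the other HUM sites. With 1 library per assay, no difference between classes could be tested; intervals of shares cover counting error only, and those of medians are exact binomial intervals over the sites of these libraries.

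PRDM9 binds DNA through its zinc fingers, trimethylates lysine 4 of histone H3 on nearby nucleosomes and so directs SPO11 to make double-strand breaks there. The recombinase DMC1 coats the single-stranded ends and carries out the search for the homologous chromosome. Most H3K4me3 of the genome is placed by other methyltransferases at gene starts, many of them rich in CpG, and in mice without PRDM9 breaks form at such places. A humanized mouse allele carries the zinc fingers of a human PRDM9, which has a known sequence motif rich in C with a core of fixed spacing.

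Sequence could be read here only within promoters, so that at most DMC1 centres is not shown. Promoters (250 bases before to 50 after a gene start, RefSeq, GRCm38.p6) held the centre of 9 of the 676 on-peak sites, 5 at protein-coding and 4 at long noncoding genes. Those of 4 genes follow as the 250 bases before the start on the gene's strand, printed because breaks were centred there. Capitals mark the core motif known for human PRDM9 (the PRDM9 core), the GC box GGGCGG (each searched on both strands) or the TATA box TATAAA (gene strand); matches may overlap each other. The site at Irf7 was named by the rule for named sites, and the others were chosen after their values were seen.
Irf7, chr7:141266425-141266674, minus strand: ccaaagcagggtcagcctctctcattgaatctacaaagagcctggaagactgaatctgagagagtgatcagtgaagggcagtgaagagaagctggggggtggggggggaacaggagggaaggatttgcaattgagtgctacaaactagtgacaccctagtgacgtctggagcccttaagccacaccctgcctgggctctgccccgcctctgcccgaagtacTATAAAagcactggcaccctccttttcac
Nectin4, chr1:171369923-171370172, plus strand: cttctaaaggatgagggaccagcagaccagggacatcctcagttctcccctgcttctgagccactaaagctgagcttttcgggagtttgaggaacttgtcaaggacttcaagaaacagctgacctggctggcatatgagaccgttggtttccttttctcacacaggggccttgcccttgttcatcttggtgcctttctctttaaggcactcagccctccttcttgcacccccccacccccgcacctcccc
Vill, chr9:119052528-119052777, plus strand: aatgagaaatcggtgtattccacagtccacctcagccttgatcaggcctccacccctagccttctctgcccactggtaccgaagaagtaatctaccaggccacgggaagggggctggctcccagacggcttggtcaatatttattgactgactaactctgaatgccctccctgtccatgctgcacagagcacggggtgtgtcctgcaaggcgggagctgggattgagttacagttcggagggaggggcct
Gm29943, chr2:180293508-180293757, plus strand: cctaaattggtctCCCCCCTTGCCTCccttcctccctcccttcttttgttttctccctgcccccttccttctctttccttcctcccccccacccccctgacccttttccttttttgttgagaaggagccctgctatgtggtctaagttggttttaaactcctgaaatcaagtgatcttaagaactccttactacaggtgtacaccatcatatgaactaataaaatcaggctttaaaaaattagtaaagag

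At Irf7, a transcription factor of the antiviral interferon response, the DMC1 centre lay 6 bases after the start, next to a promoter with a TATA box. The DMC1 signal there was 44.6 and the H3K4me3 signal 37.6, both in the authors' units. That H3K4me3 value repeats the value of an earlier line. All of the DMC1 at Irf7 was on the B6 homologue (B6 share 1), against an H3K4me3 share of 0.586. At Nectin4, a cell adhesion gene, the centre lay 66 bases before the start, with DMC1 62.7, H3K4me3 49.7 and B6 shares of 0.235 and 0.443. At Vill, an actin-binding protein of the villin family, it lay 170 bases before the start, with DMC1 22.6, H3K4me3 55.8 and B6 shares of 0.90 and 0.654. Of the 9 promoters with a centre, that of the noncoding gene Gm29943 alone held the PRDM9 core before the start, and its site had DMC1 24.5 and H3K4me3 31.1.

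The PRDM9 core stood in 5 of the 38 coding promoters within 1 kb of an on-peak site, or 13.2% (4.41% to 28.1%). It stood in 12.5% of the 40 promoters within 1 kb of other HUM sites and in 7.30% of all 20085 coding promoters on autosomes, so the interval of the first share includes both. In 4 of the 5 promoters a match lay before the start. Windows around it are shown for 3 genes, with the core in capitals and 20 bases either side where the promoter allowed.
Pxdn, chr12:29937974-29938026, plus strand: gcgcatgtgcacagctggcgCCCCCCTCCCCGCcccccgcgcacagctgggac
Rhcg, chr7:79617865-79617907, minus strand: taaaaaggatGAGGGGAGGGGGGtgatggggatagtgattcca
Tppp2, chr14:51918677-51918729, plus strand: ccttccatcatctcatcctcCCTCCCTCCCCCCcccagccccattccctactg
The matches shown lie in stretches rich in C, or in G where the core is on the opposite strand. The site near Pxdn, a peroxidase of the basement membrane, lay 473 bases before the start and was used on both homologues (DMC1 240.4, H3K4me3 104, B6 shares 0.554 and 0.514). The one near Rhcg, an ammonium transporter, lay 822 bases into the gene with DMC1 79.3 and H3K4me3 124. The one near Tppp2, a tubulin-binding protein, lay 328 bases before the start with DMC1 15.5 and H3K4me3 75.7. A match is a stretch of letters and was not shown to be bound.

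On-peak sites had much H3K4me3 and little DMC1 for it. Their median H3K4me3 was 24.6 (quartiles 13.3 and 43.0, 95% interval 23.1 to 27.0), against 9.98 (5.95 and 18.1, interval 9.77 to 10.2) elsewhere in the HUM class, 2.46-fold higher (log2 difference 1.30). The choice of sites by an H3K4me3 peak bears on that difference, so it is given as a description. The median DMC1 was 43.4 (quartiles 22.9 and 113, interval 40.5 to 48.6) against 52.8 (24.8 and 126, interval 50.9 to 54.5). That is a log2 difference of -0.28, and the quartiles of the classes overlapped widely. DMC1 was lower on 14 of 19 autosomes taken one at a time. The log2 difference was -0.53 without sites that repeat the H3K4me3 value of an earlier line. It was 0.0022 among the stronger 50% of autosomal sites, a choice made on DMC1 itself. DMC1 per H3K4me3 had a median of 2.30 against 5.65, a log2 difference of -1.30 or 2.45-fold, with the same direction on 19 of 19 autosomes. H3K4me3 is the divisor of this ratio and was itself higher on 19 of 19. The choice of sites therefore bears on the ratio and its direction as well. DMC1 was numerically smaller than H3K4me3 at 22.6% of on-peak sites (153 of 676) and at 0.883% of the other HUM sites. CAST sites on peaks had 16.1% and UNK sites on peaks 37.6%. Each signal is in the authors' own units, so where they cross is only a description.

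**Figure D1:**
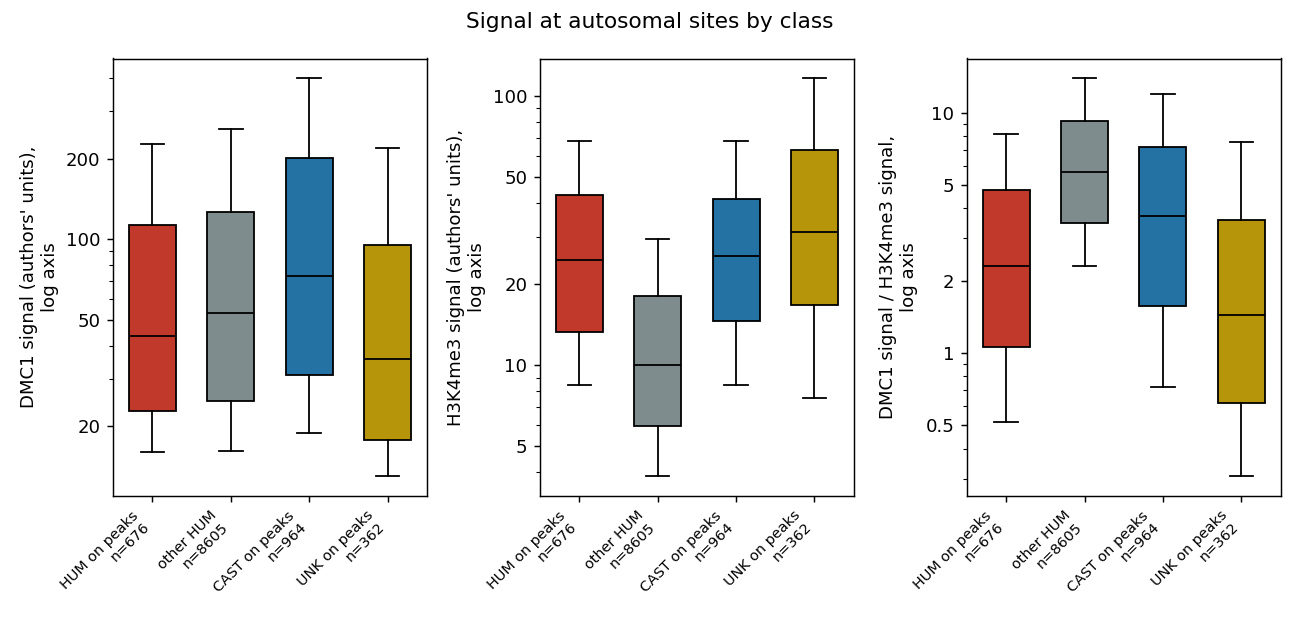
DMC1 signal, H3K4me3 signal and their ratio (log axes, authors' units) at autosomal sites of 4 classes; boxes are quartiles with the median, whiskers the 10th and 90th percentiles over sites. HUM sites on PRDM9-independent peaks have a median ratio of 2.30, against 5.65 at other HUM sites, 3.73 at CAST sites on such peaks and 1.44 at UNK sites on such peaks. The choice of sites by an H3K4me3 peak bears on the H3K4me3 signal and on the ratio.

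Among sites on such peaks, the HUM sites had a median DMC1 and a median ratio between those of the CAST and the UNK sites, and the lowest median H3K4me3 of the 3 classes. H3K4me3 was close to that of the 964 CAST sites on peaks (median 25.5, log2 difference -0.05) and under that of the 362 UNK sites on peaks (31.4). DMC1 was 73.1 at the CAST sites and 35.7 at the UNK sites, and HUM sites were above the UNK sites in DMC1 on only 11 of 19 autosomes. The ratio was lower than at CAST sites by a log2 difference of -0.70 (on 16 of 19 autosomes) and higher than at UNK sites by 0.67 (18 of 19).

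At the same H3K4me3, on-peak sites had less DMC1 than other HUM sites over most of the range, with small gaps in the lowest bins and larger, uneven ones above. Sites were compared within 20 bins of H3K4me3 that held equal numbers of autosomal sites. The weighted log2 difference in DMC1 was -1.49, or 2.81-fold, over 18 bins with at least 5 sites of each class, and on-peak sites were lower in 16 of them. In the bin from 5.29 to 6.13 the medians were 31.5 and 28.9, with 13 on-peak sites. In the bin from 15.1 to 17.3 they were 41.2 and 95.1, with 25 on-peak sites. The largest gap was in the bin from 19.7 to 22.8, with 26.3 and 137 (log2 difference -2.38), and the bins from 26.1 to 47.2 had gaps of -1.27, -1.74 and -1.66. In the highest, from 47.2 upward, they were 72.6 at 142 on-peak sites and 347 at 190 other HUM sites. That bin has no upper limit and the on-peak sites need not be spread in it like the others. The same matching gave a log2 difference of -0.79 from CAST sites on peaks (18 bins) and 0.43 from UNK sites on peaks (14 bins). Across sites, the Spearman correlation of DMC1 with H3K4me3 was 0.339 over the 676 on-peak sites and 0.723 over the other HUM sites. It was 0.407 over CAST and 0.379 over UNK sites on peaks, so the lower value was common to the classes on peaks. The sites share both libraries, and these are descriptions.

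**Figure D2:**
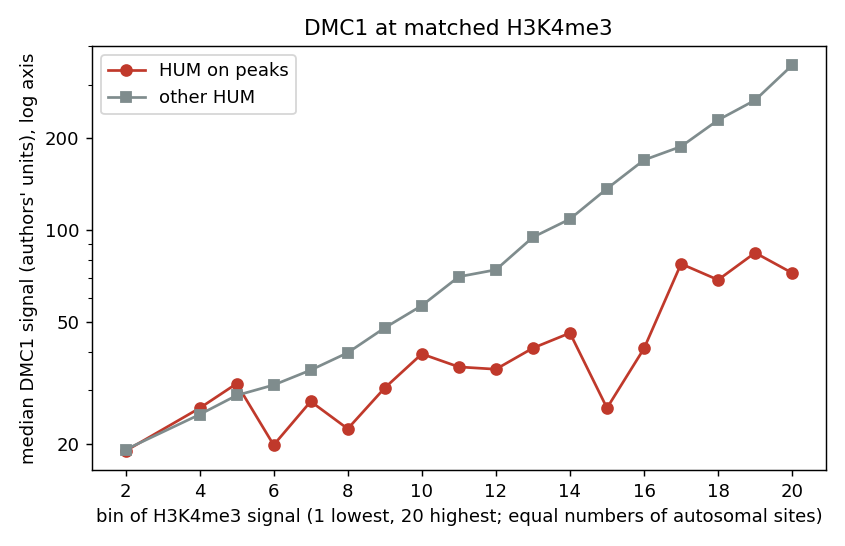
Median DMC1 signal (log axis, authors' units) in each bin of H3K4me3 signal for HUM sites on PRDM9-independent peaks and other HUM sites, shown for the 18 bins with at least 5 sites of both. The classes start together near 19 and end at 72.6 and 347.

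Divided into 5 groups of 135 or 136 by their own H3K4me3, the on-peak sites had median DMC1 of 26.3, 40.1, 50.6, 71.2 and 67.0 from the lowest to the highest group. The median ratio was 3.58 in the lowest and 0.954 in the highest. H3K4me3 is the divisor of this ratio, so the grouping itself favours a fall. The highest group, with H3K4me3 from 48.8 to 268, had the highest share of sites within 2 kb of a gene start, 39.4% of its 109 sites with a known start, against 9.01% of 111 in the lowest group.

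The strongest on-peak sites were strong in both marks and most were used on both homologues. The first lay inside Fam184a, 3.85 kb after its start (chromosome 10, position 53747062, mm10), with DMC1 796 and H3K4me3 65.4. It was followed by a site inside Hsd17b4, an enzyme of peroxisomal fatty acid oxidation (chromosome 18, 50184864; DMC1 678, H3K4me3 47.7). The third lay inside Ptpn20, a tyrosine phosphatase (chromosome 14, 33591214; DMC1 618, H3K4me3 90.8). The fourth was inside Sorcs3, a neuronal sorting receptor (chromosome 19, 48259537; DMC1 614). Next came a site inside Gramd1b, a carrier of cholesterol between membranes (chromosome 9, 40337730; DMC1 598). The sixth lay 2.98 kb into Skp2, the substrate receptor of a ubiquitin ligase of the cell cycle (chromosome 15, 9152441; DMC1 598). The last of these 8 were inside Dst, a linker of the cytoskeleton (chromosome 1, 34143253; DMC1 567), and 2.63 kb after the start of Tob1, an antiproliferative gene (chromosome 11, 94214087; DMC1 536). All 8 lay inside genes. The DMC1 B6 share was 0.00484 at the site in Hsd17b4, with an H3K4me3 share of 0.110, and 0.320 to 0.576 at the other 7. Of all on-peak sites 3.70% were in the top 10% of autosomal sites by DMC1, against 5.51% of the other HUM sites, while 32.1% and 5.33% were in the top 10% by H3K4me3. CAST and UNK sites on peaks had 13.3% and 3.31% in the top 10% by DMC1, and 31.1% and 42.3% by H3K4me3.

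The 5 on-peak sites with the most H3K4me3 had little DMC1 for it, and 3 of them were below the class median in DMC1. Picking sites by the divisor of the ratio itself favours a low ratio. The highest value belonged to a site 0.383 kb before the start of Rint1, a gene of vesicle transport to the Golgi (chromosome 5, 23787328), with H3K4me3 268 and DMC1 16.2. Its ratio of 0.0604 was also the lowest of all 676. The next was 5.66 kb outside BC035044 (chromosome 6, 128842381; H3K4me3 191, DMC1 68.2). Trps1, a repressor of the GATA family, held the third (chromosome 15, 50889313; 183 and 17.8). The fourth was in Eps8l3 (chromosome 3, 107874109; 179.5 and 53.9), followed by one in Ppp2r5e, a regulatory subunit of protein phosphatase 2A (chromosome 12, 75549286; 166 and 24.3). The site in Trps1 had the ratio 0.0973. The other low ratios were 0.0704 beside Ftmt, the mitochondrial ferritin (chromosome 18, 52333021), 0.0990 in Camk2n1, an inhibitor of the kinase CaMKII (chromosome 4, 138456555), and 0.103 in Atxn1 (chromosome 13, 45963052).

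At the opposite end were sites with DMC1 far above their H3K4me3, and 4 of these 5 were on the CAST homologue. The highest ratio, 29.9, was at a site 12.5 kb outside Laptm5, a lysosomal membrane protein of blood cells (chromosome 4, 130900392), with DMC1 212, H3K4me3 7.09 and a DMC1 B6 share of 0.00962. The next, 23.5, was 11.5 kb from Intu, a gene of planar polarity (chromosome 3, 40519800), with a DMC1 B6 share of 0.439. The others were in Ppp3ca, the catalytic subunit of calcineurin (chromosome 3, 136721664; ratio 22.7, DMC1 share 0.0111), 71.4 kb from Klf10 (chromosome 15, 38372118; 20.7, 0.0210) and 38.1 kb from Sox1 (chromosome 8, 12437662; 19.3, 0.00810). The H3K4me3 value behind the ratio near Klf10 repeats the value of an earlier line.

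Although PRDM9-independent H3K4me3 is known from gene starts, most on-peak sites were not centred at one. A start was known for 526 of the 676 sites, since the promoter table covers 79.9% of coding genes and not chromosome 18. Within 1 kb of a start lay 38 of the 526, or 7.22% (5.16% to 9.78%), against 0.584% of 6683 other HUM sites (0.415% to 0.797%). Within 5 kb lay 36.9% against 8.39%. The median distance was 11.9 kb (9.14 to 14.7) against 39.7 kb. The CAST sites on peaks had 5.97% within 1 kb, and the UNK sites on peaks 16.4% (12.3% to 21.1%). Starts of all gene types, noncoding ones included, had 9.55% of on-peak sites within 1 kb and 1.26% of the other HUM sites.

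Around the start itself the on-peak sites were spread unevenly. In the first 0.25 kb after the start there were 2 sites, or 1.52% of the class per kb. From 1 to 2 kb into the gene there were 45, or 8.56% per kb, and from 2 to 5 kb 76, or 4.82% per kb. On the upstream side 15 sites lay between 1 and 2 kb from the start, which is 2.85% per kb. CAST sites on peaks were likewise densest from 1 to 2 kb into the gene, with 6.23% per kb, and had 3.80% per kb from 2 to 5 kb. UNK sites on peaks were densest closer to the start, with 13.7% per kb from 0.25 to 0.5 kb into the gene and 4.10% per kb from 1 to 2 kb. The other HUM sites had 0.494% per kb from 1 to 2 kb into the gene and 1.18% from 2 to 5 kb.

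**Figure D3:**
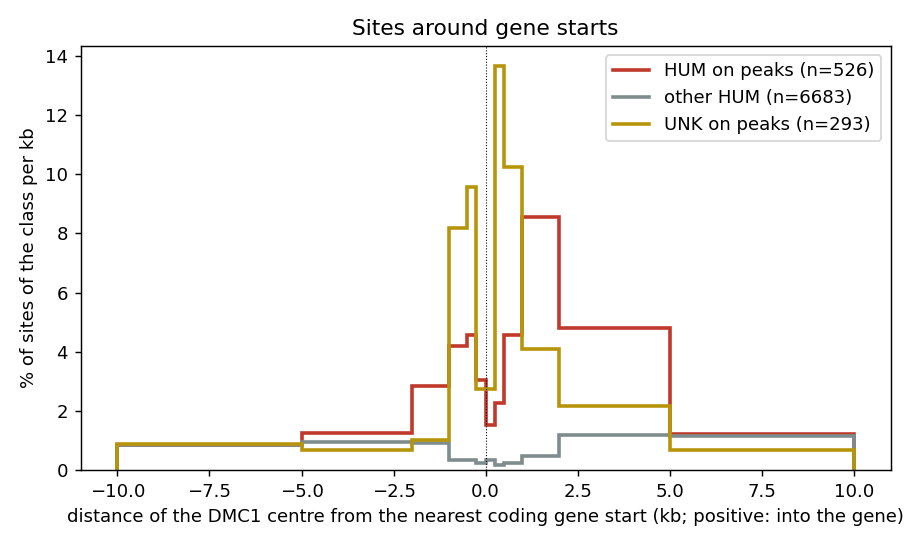
Share of each class per kb by distance of the DMC1 centre from the nearest coding gene start (kb, positive values into the gene), in bins that narrow toward the start. HUM sites on peaks reach 8.56% per kb from 1 to 2 kb into the gene, UNK sites on peaks 13.7% from 0.25 to 0.5 kb, and other HUM sites stay under 1.2% throughout. CAST sites on peaks, not drawn, reach 6.23% per kb from 1 to 2 kb into the gene.

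Median H3K4me3 fell with this distance, while median DMC1 was highest at 1 to 2 kb and showed no steady change. On-peak sites within 1 kb of a start had a median H3K4me3 of 55.8 and a DMC1 of 38.4, a ratio of 0.763. Those at 1 to 2 kb (60 sites) had 36.3 and 72.1, a ratio of 2.26. Those at 2 to 5 kb (96 sites) had 26.7 and 41.3, a ratio of 2.27. Those beyond 5 kb (332 sites) had 22.3 and 44.3, a ratio of 2.73. The DMC1 quartiles of these groups overlapped (24.6 to 75.7, 28.9 to 133, 24.4 to 124 and 23.1 to 116). The other HUM sites had ratios of 4.49, 4.48, 5.85 and 5.68 at the same distances. Promoters within 2 kb of an on-peak site had a median of 5.17 CpG per 100 bases (100 promoters, interval 4 to 6.67). Those within 2 kb of another HUM site had 2 (136 promoters, 1.33 to 2.33), and all coding promoters 4.67. Near CAST and UNK sites on peaks the medians were 5 and 5.67, so the value was common to the classes on peaks. Within 1 kb the medians were lower, 2.33 for on-peak sites (38 promoters, 1.33 to 4) and 1.33 for other HUM sites (40 promoters, 1 to 1.67). For CAST and UNK sites on peaks they were 2.5 and 5.33. The CpG content near on-peak sites thus depended on the distance chosen. Inside a coding gene lay 61.8% of on-peak sites (58.1% to 65.5%), against 56.7% of the other HUM sites (55.6% to 57.7%).

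H3K4me3 at on-peak sites was close to even between the homologues, while DMC1 was not. H3K4me3 was one-sided, with a B6 share under 0.1 or over 0.9, at 4.59% of 653 on-peak sites (3.12% to 6.49%), against 14.6% of 8091 other HUM sites (13.8% to 15.3%), 6.47% of CAST sites on peaks and 3.85% of UNK sites on peaks. DMC1 was one-sided at 31.2% of 613 on-peak sites (27.5% to 34.99%) and at 36.4% of the other HUM sites (35.3% to 37.4%). Of the one-sided on-peak sites 103 were on the CAST and 88 on the B6 homologue. At sites with both shares, DMC1 was farther from 0.5 than H3K4me3 at 82.7% of 612 on-peak sites and at 79.1% of 7814 other HUM sites. The share was 77.1% at CAST and 82.8% at UNK sites on peaks, so it is not particular to the on-peak HUM sites. The median distances from 0.5 at on-peak sites were 0.247 for DMC1 and 0.0852 for H3K4me3. At the other HUM sites these medians were 0.273 and 0.149. The shares followed each other less closely across on-peak sites (Spearman 0.610) than across the other HUM sites (0.870), as a description. CAST sites on peaks had 0.651 and UNK sites on peaks 0.599.

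At a given DMC1 share, the H3K4me3 share of on-peak sites lay nearer to 0.5. Where DMC1 was under 0.1, the median H3K4me3 share was 0.328 (interval 0.279 to 0.358) at on-peak sites and 0.133 (0.128 to 0.140) at the other HUM sites. Where DMC1 was over 0.9 it was 0.719 (0.665 to 0.781) and 0.885 (0.879 to 0.891). Between 0.3 and 0.7 the classes had nearly the same median, 0.514 and 0.512. Read the other way, among sites with an H3K4me3 share of 0.3 to 0.7, DMC1 was one-sided at 93 of 464 on-peak sites, or 20.04% (16.5% to 24.0%), and at 5.61% of the other HUM sites (4.96% to 6.33%). The other classes on peaks were like the on-peak HUM sites in this, with 18.2% at CAST and 21.7% at UNK sites. Their median H3K4me3 shares were 0.320 (CAST) and 0.379 (UNK) where DMC1 was under 0.1, and 0.780 and 0.731 where it was over 0.9. The share with one-sided DMC1 at such H3K4me3 was also taken by DMC1 strength. Above the autosomal median of DMC1 it was 14.9% (10.2% to 20.8%) at on-peak and 3.05% (2.37% to 3.87%) at other HUM sites. Below the median it was 23.7% (18.8% to 29.2%) and 8.01%. CAST sites on peaks had 17.9% above and 18.5% below, and UNK sites on peaks 21.8% and 21.6%, so there it hardly changed. The part of DMC1 strength in the difference between on-peak and other HUM sites was not tested. The number of reads behind a share was unknown. With H3K4me3 at 0.45 to 0.55, DMC1 had a median B6 share of 0.447 (0.419 to 0.462) at on-peak sites and 0.434 (0.428 to 0.440) at the other HUM sites.

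**Figure D4:**
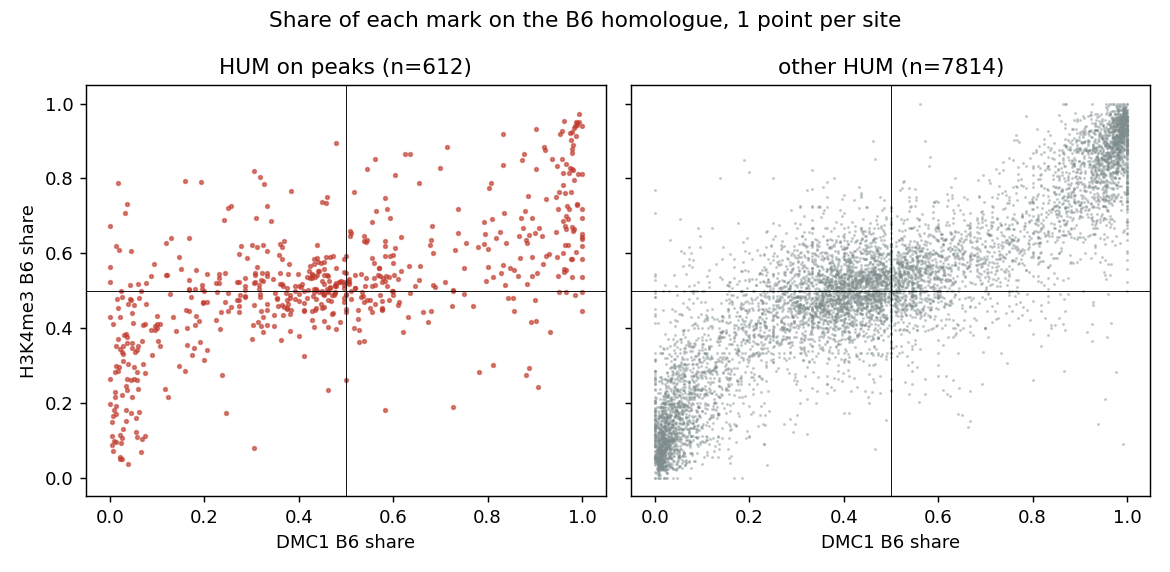
H3K4me3 B6 share against DMC1 B6 share, 1 point per autosomal site, for 612 HUM sites on PRDM9-independent peaks (left) and 7814 other HUM sites (right). On the left many sites with a DMC1 share near 0 or 1 keep H3K4me3 shares toward 0.5, with medians of 0.328 below a DMC1 share of 0.1 and 0.719 above 0.9.

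The most one-sided of the stronger on-peak sites in DMC1 are described next. On the B6 side, a site in Ncoa2, a coactivator of nuclear receptors (chromosome 1, 13361882; DMC1 247), had a DMC1 share of 1 and an H3K4me3 share of 0.643. A site 3.14 kb into En1, a homeobox gene (chromosome 1, 120605624; DMC1 46.5), had 1 and 0.812, and that at Irf7 is given above. A site 26.0 kb from Drosha, the nuclease of microRNA processing (chromosome 15, 12961315; DMC1 85.1), had 1 and 0.941. On the CAST side, a site 11.3 kb from Irf2bpl (chromosome 12, 86896097; DMC1 212) had shares of 0 and 0.264. A site in Slc7a14, a membrane transporter (chromosome 3, 31206177; DMC1 305), had 0.00371 and 0.150. A site in Plekhf1, a protein of lysosomes and endosomes (chromosome 7, 38225142; DMC1 204), had 0.00506 and 0.0857. These sites were chosen for an extreme DMC1 share, so that the H3K4me3 share lay nearer to 0.5 in each is fixed by the choice and supports nothing.

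The H3K4me3 signal was then split by its B6 share at the sites with one-sided DMC1. On the homologue with little DMC1, the on-peak sites had a median H3K4me3 of 4.94 (quartiles 2.10 and 10.0; 191 sites, interval 3.73 to 6.16), and the other HUM sites had 0.958 (0.595 and 1.64; 2857 sites, interval 0.928 to 0.992). On the homologue with the DMC1 the medians were 13.4 and 7.43. DMC1 per H3K4me3 on that homologue alone was 4.85 at on-peak sites and 9.21 at the other HUM sites. CAST sites on peaks had 4.87 on the homologue with little DMC1 and UNK sites on peaks 7.23, so the higher value was common to the classes on peaks. The choice of sites by an H3K4me3 peak bears on these H3K4me3 values and ratios, which are given as a description.

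**Figure D5:**
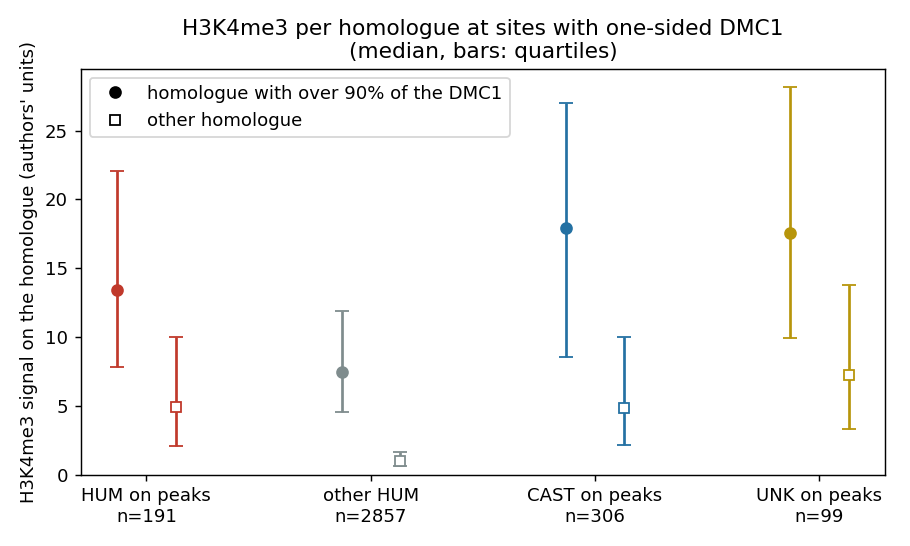
H3K4me3 signal (authors' units) on the homologue that holds over 90% of the DMC1 (filled) and on the other homologue (open) at sites with one-sided DMC1, by class; points are medians and bars quartiles over sites. The other homologue has a median of 4.94 at HUM sites on peaks and 0.958 at other HUM sites. It has 4.87 at CAST and 7.23 at UNK sites on peaks. The choice of sites by an H3K4me3 peak bears on these values.

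The on-peak sites were spread over all autosomes. They made up from 4.38% of the HUM sites of chromosome 6 (24 sites, interval 2.83% to 6.45%) to 9.30% of those of chromosome 11 (49 sites, 6.96% to 12.1%), the lowest and the highest of 19. The nearest other DMC1 site was at a median of 24.1 kb (21.7 to 27.5), against 26.8 kb for the other HUM sites, and was under 5 kb away for 10.7% and 10.0%. The closest of the named sites was that in Plekhf1, with another HUM site at 0.847 kb.

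Coding genes that held an on-peak site or lay within 1 kb of one numbered 461 of 20665 on the autosomes, or 2.23%. Of 27 genes of meiotic recombination 0 had one, which allows up to 11.1% at 3 counts. The same held for 0 of 8 spermatid and 0 of 8 Sertoli and Leydig genes. Lists of 8 allow up to 37.5% at 3 counts, so these are too short to show a lack. Of 95 ribosomal protein genes 3 had one, Rpl13a, Rpl22 and Rpl27a. The site 1.85 kb into Rpl13a (chromosome 7, 45126891) was the strongest in the lists, with DMC1 438, H3K4me3 43.5 and B6 shares of 0.507 and 0.532. That in Rpl22 (chromosome 4, 152327131) had DMC1 22.8 and H3K4me3 24.0. Of 98 genes of the respiratory chain 2 had one: Ndufb1 (chromosome 12, 101969683; DMC1 54.2) and Uqcrh (chromosome 4, 116072691; DMC1 14.3). Of 19 chromatin genes only Dnmt3a, a DNA methyltransferase (chromosome 12, 3896801; DMC1 24.99, H3K4me3 3.99), of 70 genes of the Hox, Pax, Lhx and Nkx families only Hoxb3 (chromosome 11, 96309488; DMC1 30.7) and of 23 splicing genes only Srsf10 (chromosome 4, 135869478; DMC1 24.5) had one. Of 391 zinc-finger genes with symbols starting in Zfp 2 did, Zfp157 (DMC1 32.4) and Zfp128 (DMC1 15.9), or 0.512%. Other HUM sites were held or lay within 1 kb in 7.67% of these Zfp genes, against 16.2% of all coding genes. That share varied widely between lists. It was 57.9% for chromatin, 25% for Sertoli and Leydig, 14.8% for meiotic recombination and 9.18% for respiratory chain genes. The Hox, Pax, Lhx and Nkx families had 5.71%, ribosomal protein genes 2.11%, and splicing and spermatid genes 0%. The lists differ in gene length, and a long gene has more room for a site.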

How the data were processed

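The deposited table has 1 line per DMC1 site. The strength of DMC1 and of H3K4me3 is a signal from the authors' peak caller, per the file headers. The deposited B6 fraction divides what falls on the B6 homologue by the sum over both. The H3K4me3 reads are credited there to Li and colleagues, and whether they come from the H3K4me3 sample listed here is not stated. The submitters' processing notes name BWA (0.7.15 for H3K4me3, no version for DMC1) and mm10. How values were scaled to depth, how the PRDM9-independent peaks were called and how many reads stand behind a site is not stated in the headers, labels or notes. MNase-seq data were left out. At 10220 sites, 137 of them among the 676, the H3K4me3 value repeats that of an earlier line. The first site with each such value is not counted and was kept when repeats were left out.

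Values were compared as log2 of the deposited signals without a pseudocount, with Python 3.11.15, pandas 2.3.3 and scipy 1.17.1. Sites were named by their nearest RefSeq coding gene (GRCm38.p6, the build of mm10). Distances to starts used the sites whose nearest coding gene has a promoter in the RefSeq table, a step adopted because that table is incomplete. The named sites were the 8 highest in DMC1, the 5 highest in H3K4me3, the 5 highest and 5 lowest ratios, the 4 most one-sided in each direction among the stronger 50% of members, and up to 2 per gene list. The members and lists were chosen with earlier results of these data known. The split of H3K4me3 by homologue was added after the data were seen.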

Additional observations from a re-analysis of the deposited data

How the results depend on the processing

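Leaving out any 1 autosome kept the log2 difference from other HUM sites between -0.34 and -0.26 for DMC1, 1.29 and 1.33 for H3K4me3, -1.35 and -1.25 for the ratio and -1.53 and -1.43 for DMC1 at matched H3K4me3. With the stronger 50% of autosomal sites by DMC1, a choice made on the compared value, these became 0.0022, 0.92, -0.82 and -0.73, the correlation of the marks 0.226, one-sided H3K4me3 7.66% (20.5% at other HUM sites), the excess distance of DMC1 from 0.5 0.083 and the share of HUM sites on peaks 6.41%. Without sites that repeat the H3K4me3 value of an earlier line, DMC1 differed by -0.53, H3K4me3 by 1.15 and the ratio by -1.45. In that setting 10.2% of HUM sites were on peaks, and the cause was not tested. Limits of 0.05 and 0.95 gave one-sided DMC1 at 22.5% and one-sided H3K4me3 at 0.919%, and limits of 0.2 and 0.8 gave 44.7% and 12.7%. The mean excess distance of DMC1 was 0.129. Within 0.5 kb of a start lay 2.85% of on-peak sites and within 2 kb 18.6%; another site lay within 2 kb of 1.92% and within 10 kb of 22.6%. In all, 117 of the recomputed values moved by less than the interval over sites, 20 moved by more and 1 changed sign. Bins over HUM sites alone (-1.51), either gene end (9.76%) and starts of all gene types were chosen after seeing the data. No paired analysis was possible because each assay has 1 library. Precision is limited by that and by the unknown number of reads per site.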

Other observations

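On the X, which the choice of sites left out, 14 HUM sites overlapped a PRDM9-independent peak. Their DMC1 ran from 12.7 to 528 with a median of 97.7, their H3K4me3 from 15.01 to 233 with a median of 53.1, and the median ratio was 1.44. The B6 share was 0.9896 to 1 for H3K4me3 and, at the 12 sites where it was given, 0.993 to 1 for DMC1. Males carry a single X, so these shares are set by the cross and do not describe use of homologues.

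Coding genes with 2 on-peak sites inside or within 1 kb numbered 14, and none had more. Among them was the large gene Wwox (913 kb), which held 6 other HUM sites as well. Others were short: Dyrk3, a kinase gene of 9.79 kb, and Morn3, of 13.6 kb, each had 2 on-peak sites and 0 other HUM sites.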
